A study of Mus musculus with 3 samples.

Results

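The genes of the cytotoxic granule and of the cytokines released with it were followed in lymphocytes of mouse dorsal skin. The members were Gzma, Gzmb, Gzmc, Prf1, Nkg7, Ctsw, Xcl1 and Ifng, which were chosen by name, and all 8 were found among the 32285 genes of the count matrices. Skin had been taken from 8-week-old male C57Bl/6 mice in telogen, digested and enriched for immune cells with CD45+ magnetic beads, and sequenced as single cells from the 3′ end of the transcripts. The groups were WT mice without UVB (WT_Ctrl), WT mice after 3 UVB exposures (WT_UV), and RP mice after 3 UVB exposures (RP_UV), and both irradiated skins were collected at day 5. RP stands for Rosa26-rtTA, Tre-Ptgs2, in which doxycycline switches on rat Ptgs2, the gene of the prostaglandin enzyme Cox-2, by a global driver. The study reported the excess Cox-2 mainly in keratinocytes of the epidermis and in immune cells that had infiltrated the skin. An RP library without UVB was not analysed here, and each group had 1 library.

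Cytotoxic lymphocytes carry preformed granules. Perforin, the product of Prf1, opens pores in the membrane of a target cell, and granzymes are serine proteases that pass through and cleave proteins inside it. Nkg7 is a granule membrane protein needed for efficient degranulation, and Ctsw is a cysteine protease (cathepsin W) of cytotoxic lymphocytes. Xcl1 is a chemokine that attracts dendritic cells with the receptor Xcr1, and Ifng is the cytokine interferon gamma. In mouse skin the epidermis holds dendritic epidermal T cells, which carry a fixed γδ receptor, while αβ T cells and natural killer (NK) cells lie mainly in the dermis.

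The promoters of 5 members are shown because Gzmb and Gzmc, neighbours on chromosome 14, were counted in different numbers of cells, whereas Prf1, Nkg7 and Xcl1 were each lower in CPM in γδ T cells of WT_UV than of WT_Ctrl. Each line gives the 250 bases before the annotated start of transcription, 5′ to 3′ on the strand of the gene, from RefSeq on GRCm38.p6. Capitals mark letters that match a searched motif on either strand.
Gzmb: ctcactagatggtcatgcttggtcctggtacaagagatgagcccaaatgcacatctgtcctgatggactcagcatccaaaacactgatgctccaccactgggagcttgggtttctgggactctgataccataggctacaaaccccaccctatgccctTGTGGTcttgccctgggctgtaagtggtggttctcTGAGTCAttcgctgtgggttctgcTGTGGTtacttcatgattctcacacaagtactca
Gzmc: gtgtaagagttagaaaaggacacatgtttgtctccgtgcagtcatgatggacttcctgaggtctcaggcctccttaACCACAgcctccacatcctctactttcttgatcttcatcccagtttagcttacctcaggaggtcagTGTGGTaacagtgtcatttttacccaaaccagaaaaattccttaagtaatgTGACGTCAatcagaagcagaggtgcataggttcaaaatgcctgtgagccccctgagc
Prf1: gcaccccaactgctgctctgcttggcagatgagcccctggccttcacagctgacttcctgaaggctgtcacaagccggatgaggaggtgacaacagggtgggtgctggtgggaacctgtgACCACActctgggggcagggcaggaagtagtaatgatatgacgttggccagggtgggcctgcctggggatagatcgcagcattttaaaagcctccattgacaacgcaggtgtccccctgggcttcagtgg
Nkg7: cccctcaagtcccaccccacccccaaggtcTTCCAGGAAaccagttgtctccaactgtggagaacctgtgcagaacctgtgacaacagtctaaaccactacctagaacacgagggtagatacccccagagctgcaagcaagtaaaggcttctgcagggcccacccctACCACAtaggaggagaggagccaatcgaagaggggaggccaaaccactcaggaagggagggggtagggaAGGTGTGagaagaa
Xcl1: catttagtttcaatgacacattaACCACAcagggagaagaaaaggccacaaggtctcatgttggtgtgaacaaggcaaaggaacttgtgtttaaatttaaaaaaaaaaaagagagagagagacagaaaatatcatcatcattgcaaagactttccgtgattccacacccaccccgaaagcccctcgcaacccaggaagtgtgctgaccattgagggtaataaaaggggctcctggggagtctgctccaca
The Gzmb window was chr14:56262335-56262584 (minus strand), that of Gzmc chr14:56234658-56234907 (minus), of Prf1 chr10:61297586-61297835 (plus), of Nkg7 chr7:43436888-43437137 (plus) and of Xcl1 chr1:164935523-164935772 (minus). The Gzmc window lay inside the span of the gene, chr14:56231397-56241647, and that of Prf1 reached past the first base of its gene. Gzmb spanned chr14:56258836-56262334, and 17188 bases separated it from Gzmc. A promoter was found for 7 of the 8 members, and Ctsw, at chr19:5465043-5468628, had no entry. The other genes spanned chr13:113093824-113100981 (Gzma), chr10:61297751-61304684 (Prf1), chr7:43437138-43438246 (Nkg7), chr1:164931644-164935522 (Xcl1) and chr10:118441046-118445894 (Ifng). Of the 50-base words in their transcripts, 3.24% of those of Gzmc also occurred in Gzmd, Gzme, Gzmg or Gm63572 and 19.9% of those of Ifng in Gm49751, and none of those of the other 6 members were shared, so that reads of Gzmc and Ifng are the less certain ones.

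The motifs searched were AP-1 (TGANTCA), RUNX (TGTGGT), T-box (AGGTGTG), CRE (TGACGTCA) and STAT (TTCNNNGAA). The RUNX letters were present in 6 of the 7 windows, those of Gzma, Gzmb, Gzmc, Prf1, Nkg7 and Xcl1, and in 14% of 32851 promoter windows of the same length. Gzmb had them at 93 to 88 and at 34 to 29 bases before the start. The AP-1 letters were found in Gzmb alone, at 58 to 52 bases before the start, and in 6.75% of all windows. The CRE letters were found in Gzmc alone, at 57 to 50 bases, and in 1.55% of all windows. Nkg7 held the T-box letters (5.1% of windows) and, like Ifng, the STAT letters (7.02%). No 2 of these matches overlapped, and a match describes the letters only.

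The libraries differed in depth and run. After the filters of the study 5309, 5225 and 6070 cells were left in WT_Ctrl, WT_UV and RP_UV, with medians of 4246, 10557 and 3774 UMIs per cell. WT_Ctrl and RP_UV shared a flow cell and WT_UV was on another, so that run and group cannot be told apart in a comparison with WT_UV. RP_UV and WT_Ctrl shared a run but differed in both genotype and UVB. Between 8 and 11 cell barcodes were shared by any pair of libraries. Levels are given in CPM, the UMIs of a gene per 1000000 UMIs of all genes in the same cells. Ptgs2 was at 14.4, 117 and 486 CPM over all kept cells in the same order, and how far the rat transcript was counted as the mouse gene is not known. With 1 library a group there was no test, and the 95% intervals (exact Poisson for a level, exact conditional binomial for a ratio, Wilson for a share) cover counting error only.

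Lymphocyte classes were built from receptor genes within 2 clusters that were made without the members. A γδ T cell had a UMI of Cd3d, Cd3e or Cd3g and of Trdc or Tcrg-C1, and an αβ T cell had Cd3 and Trac, Trbc1 or Trbc2 with no γδ gene. An NK-like cell had no Cd3, at least 2 of 8 NK genes and fewer than 2 of 6 genes of group 2 innate lymphoid cells (ILC2). All names are rebuilt and are to be read as X-like. There were 93, 342 and 51 γδ T cells in WT_Ctrl, WT_UV and RP_UV, 225, 326 and 22 αβ T cells, and 14, 15 and 14 NK-like cells. Within the γδ T cells, 77, 279 and 29 had the receptor genes Trdv4 or Tcrg-V5 of epidermal T cells. NK-like cells had Ncr1, which encodes the receptor NKp46, at 644, 637 and 380 CPM, and γδ T cells had it at 0, 0.288 and 27. Median depth was 2661, 6098 and 2532 UMIs in γδ T cells, 2315, 5850.5 and 1903 in αβ T cells, and 2354, 6654 and 1902.5 in NK-like cells. Most γδ T cells lay in 1 cluster, numbered 15 (85, 266 and 38 cells), and most αβ T cells in the other, numbered 5 (220, 319 and 21). Of the 379, 758 and 241 cells in the 2 clusters, 38, 26 and 153 met no gate. Their median depth was 2052.5, 4463 and 865 UMIs, and 88 of those of RP_UV were below 1000. Which lymphocytes were lost in this way was not tested.

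Markers of other cells were present in these classes and differed between them. The 10 macrophage genes summed to 1611 and 1388 CPM in γδ T cells of WT_Ctrl and WT_UV and to 6212 in RP_UV, with none of the 10 at 0 in any of the 3. They stood at 858 to 1624 in the other 6 class and library pairs. Keratinocyte genes (6 genes) lay between 108 and 563 CPM, and the 4 muscle genes had at most 8 UMIs in any class. The part of macrophage RNA in the values of RP_UV γδ T cells was not tested. Neutrophil genes were not summed in these classes, and the neutrophil-like cluster held 22, 100 and 571 cells in WT_Ctrl, WT_UV and RP_UV.

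**Figure D1:**
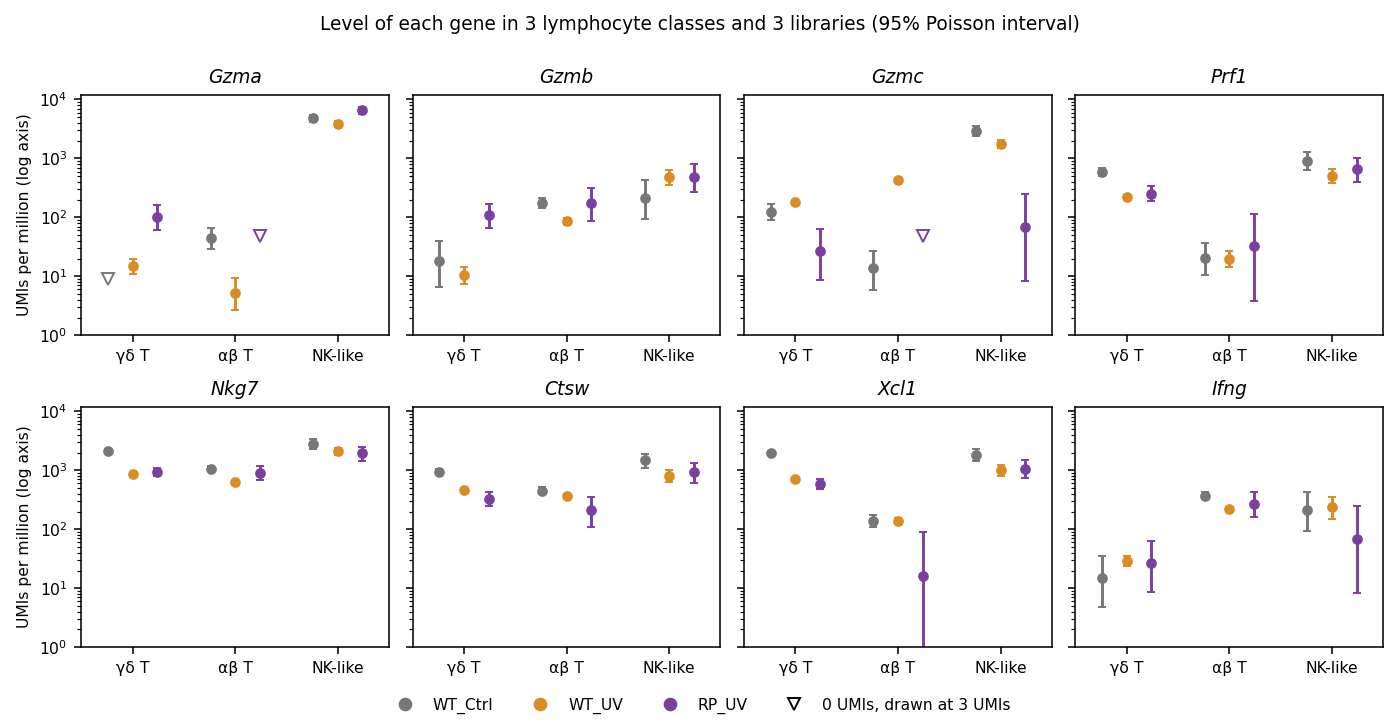
Level of each member (CPM in the class, log axis) in γδ T, αβ T and NK-like cells of the 3 libraries, with 95% Poisson intervals and open triangles where no UMI was counted. Gzma stands between 3850 and 6530 in NK-like cells and at or below 103 in T cells, and the lower end of Xcl1 in αβ T cells of RP_UV runs off the axis.

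The 3 granzymes were spread differently over the cell classes. Gzma, a granzyme that cleaves after basic residues, was a gene of NK-like cells. It stood at 4800 (4123 to 5558), 3850 (3479 to 4250) and 6530 (5632 to 7530) CPM in the libraries WT_Ctrl, WT_UV and RP_UV, from 179, 393 and 189 UMIs. RP_UV was highest and its interval overlapped neither other library, whereas those of WT_Ctrl and WT_UV overlapped. Over 9 settings of the processing the log2 ratio of RP_UV ran from -0.073 to 1.4 over WT_Ctrl and from 0.34 to 2.62 over WT_UV. The order of RP_UV and WT_Ctrl thus did not hold in every setting. Gzma was found in 9 of 14, 11 of 15 and 13 of 14 NK-like cells. Its level in αβ T cells was 44.8 (29.3 to 65.6) and 5.27 (2.72 to 9.2) in WT_Ctrl and WT_UV. No UMI was counted in 22 αβ T cells of RP_UV, where 3 UMIs would be 48.1 CPM. Gzma had in γδ T cells 0, 51 and 19 UMIs, or 0, 14.7 and 103 CPM. These came from 2 cells of WT_UV, with 39 and 12 UMIs, and from 1 cell of RP_UV, and that cell and the cell with 39 lacked Trdv4 and Tcrg-V5 and lay in cluster 5. A class ratio of γδ T cells thus rested on single cells: it was at least 11.4 for RP_UV over WT_Ctrl and at least 1.64 for WT_UV over WT_Ctrl, against the floor of 3 UMIs. With γδ T cells taken from all clusters the log2 ratios turned to -1.81 for RP_UV over WT_Ctrl and -4.74 for WT_UV over WT_Ctrl.

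Gzmb, the granzyme that activates caspases by cleavage after aspartate, was shared by αβ T and NK-like cells. Among αβ T cells it was at 177 (145 to 215), 86.1 (74.4 to 99) and 176 (88.1 to 316) CPM in the WT_Ctrl, WT_UV and RP_UV libraries. WT_UV was thus lower than WT_Ctrl by counting, at a ratio of 0.485 (0.38 to 0.622), while RP_UV overlapped both. Foxp3+ cells, the regulatory αβ T cells, had Gzmb at 361 and 277 CPM in WT_Ctrl and WT_UV (19 and 40 UMIs in 8 and 12 of 18 cells each), beside 278 and 163 in CD8+ cells. CD4+ cells without Foxp3 stood at 19.6 and 27.3. In NK-like cells Gzmb was at 215 (92.6 to 423), 480 (355 to 635) and 484 (264 to 812), with a ratio of 2.24 (1.05 to 5.47) for WT_UV over WT_Ctrl from 49 and 8 UMIs. In WT_Ctrl 6 of the 8 UMIs were in 1 cell, and with NK-like cells taken from all clusters (30 and 62 cells) the log2 ratio was -1.11. The γδ T cell level was 17.9 (6.58 to 39), 10.4 (7.27 to 14.4) and 108 (66 to 167), and 13 of the 20 UMIs of RP_UV were in 1 cell. Without that cell the level was 38.5.

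Gzmc, a granzyme encoded beside Gzmb, was found in few cells at very high counts. Its level over αβ T cells was 13.8 (5.95 to 27.2) in WT_Ctrl and 438 (411 to 466) in WT_UV, with 0 UMIs in RP_UV (floor 48.1). The 998 UMIs of WT_UV were in 16 of 326 cells, and 4 cells held 557, 173, 124 and 87 of them. The cell with 557 was CD8+, and those with 173 and 124 had no Trac UMI. Among γδ T cells Gzmc was at 126 (90.5 to 170), 183 (169 to 197) and 27 (8.77 to 63) from 42, 633 and 5 UMIs, and 1 cell of WT_UV held 434. That cell had 2 Trac UMIs and no Trdc UMI, so its class rests on Tcrg-C1. Of the 342 γδ T cells of WT_UV, 214 had no Trac UMI, and among cells without one the log2 ratio of Gzmc for RP_UV over WT_UV was 0.07. In NK-like cells 2 of 14 cells held 111 UMIs in WT_Ctrl, 2 of 15 held 180 in WT_UV, and 1 of 14 held 2 in RP_UV. A single cell held 104 of the 111 and another 178 of the 180, and the levels without them were 206 and 22.5 CPM. The share of γδ T cells with Gzmc was 14%, 5.26% and 7.84%, in another order than the level.

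**Figure D2:**
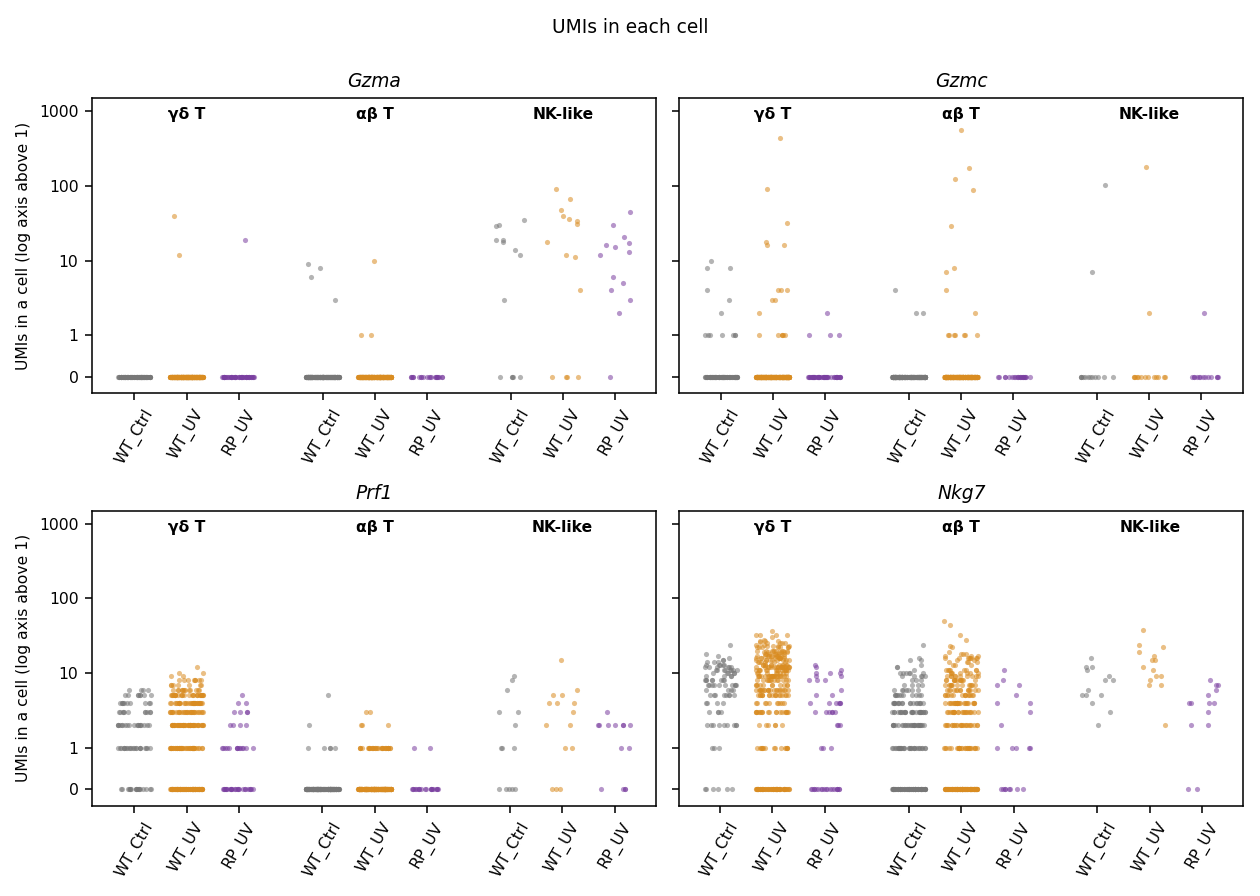
UMIs of Gzma, Gzmc, Prf1 and Nkg7 in every cell of the 3 classes and 3 libraries (1 point per cell, jittered sideways, log axis above 1 UMI). Gzmc is at 0 in most cells and reaches 557 UMIs in 1 αβ T cell of WT_UV, whereas Prf1 has at most 12 UMIs in any γδ T cell and is found in 74 of 93, 230 of 342 and 25 of 51 of them.

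Prf1 showed the opposite distribution. It was found in 74 of 93, 230 of 342 and 25 of 51 γδ T cells, with at most 12 UMIs in a cell, and its level there was 589 (510 to 677), 223 (208 to 239) and 254 (187 to 338) CPM in the WT_Ctrl, WT_UV and RP_UV libraries. Both irradiated libraries lay below WT_Ctrl and overlapped each other. In NK-like cells it was at 912 (631 to 1274), 509 (380 to 668) and 656 (395 to 1025), and in αβ T cells at 20.7 (10.7 to 36.1), 19.8 (14.4 to 26.4) and 32.1 (3.88 to 116). The level was thus higher in NK-like than in γδ T cells of each library. With 93, 342 and 51 cells beside 14, 15 and 14 NK-like cells, γδ T cells held 74.9%, 80.1% and 47% of all Prf1 UMIs of a library. Perforin was mostly found without a granzyme in γδ T cells: of 74, 230 and 25 cells with Prf1, 60, 203 and 22 had no UMI of Gzma, Gzmb or Gzmc. The reverse was counted in αβ T cells, as 34, 42 and 5 of 35, 60 and 6 cells with a granzyme had no Prf1. NK-like cells had both, in 8 of 14, 12 of 15 and 9 of 14 cells. A cell without a UMI may still express the gene at these depths.

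Nkg7 was the most widely detected member over the 3 classes together. Its level was 2108 (1955 to 2269), 879 (848 to 911) and 945 (810 to 1096) CPM in γδ T cells, 1075 (992 to 1163), 623 (591 to 656) and 898 (678 to 1166) in αβ T cells, and 2843 (2327 to 3438), 2106 (1834 to 2407) and 1935 (1462 to 2513) in NK-like cells. WT_UV was below WT_Ctrl in γδ and αβ T cells without overlap, and RP_UV overlapped WT_UV in γδ T cells and WT_Ctrl in αβ T cells. It was found in 87 of 93, 275 of 342 and 32 of 51 γδ T cells and in 41 of 43 NK-like cells. Among αβ T cells of WT_Ctrl and WT_UV, CD8+ cells had 1711 and 1329 CPM, CD4+ cells 1019 and 341, and Foxp3+ cells 228 and 90.2.

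Ctsw was found in 81 of 93, 257 of 342 and 26 of 51 γδ T cells. It stood at 954 (852 to 1064), 457 (435 to 480) and 330 (252 to 423) CPM in γδ T cells, at 455 (402 to 513), 364 (340 to 390) and 208.5 (111 to 357) in αβ T cells, and at 1475 (1111 to 1920), 803 (639 to 997) and 933 (615 to 1357) in NK-like cells. The 3 intervals did not overlap in γδ T cells and RP_UV was lowest. ILC2-like cells of WT_UV, the innate lymphocytes that lack antigen receptors, had Ctsw at 162 and Nkg7 at 202 CPM in 49 cells, and no Gzma.

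Xcl1 marked γδ T and NK-like cells. It stood at 1943 (1797 to 2098), 714 (687 to 743) and 589 (483 to 710) CPM in γδ T cells and at 1824 (1416 to 2312), 999 (815 to 1213) and 1071 (728 to 1520) in NK-like cells. Its αβ T cell level was 140 (111 to 173), 139 (124 to 155) and 16 (0.406 to 89.4), where RP_UV had 1 UMI. WT_Ctrl was highest in γδ T cells, and its interval overlapped neither irradiated library. Few αβ T cells carried Xcl1, 21 of 225, 31 of 326 and 1 of 22, and 1 cell held 40 of 81 UMIs in WT_Ctrl and another 100 of 316 in WT_UV.

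Ifng was found in αβ T and NK-like cells and in few γδ T cells. Its αβ T cell level was 372 (324 to 425), 223 (204 to 243) and 273 (159 to 437) CPM in the WT_Ctrl, WT_UV and RP_UV libraries, from 97 of 225, 137 of 326 and 5 of 22 cells. WT_UV was below WT_Ctrl, at a ratio of 0.599 (0.51 to 0.706), and RP_UV overlapped both. Within CD8+ cells Ifng was at 456 and 399 CPM in WT_Ctrl and WT_UV, a ratio of 0.876 (0.701 to 1.1). CD4+ cells had 490 and 257. γδ T cells had Ifng at 14.9 (4.85 to 34.9), 28.8 (23.5 to 35.1) and 27 (8.77 to 63), and NK-like cells at 215 (92.6 to 423), 235 (151 to 350) and 69.1 (8.37 to 250), all overlapping.

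**Figure D3:**
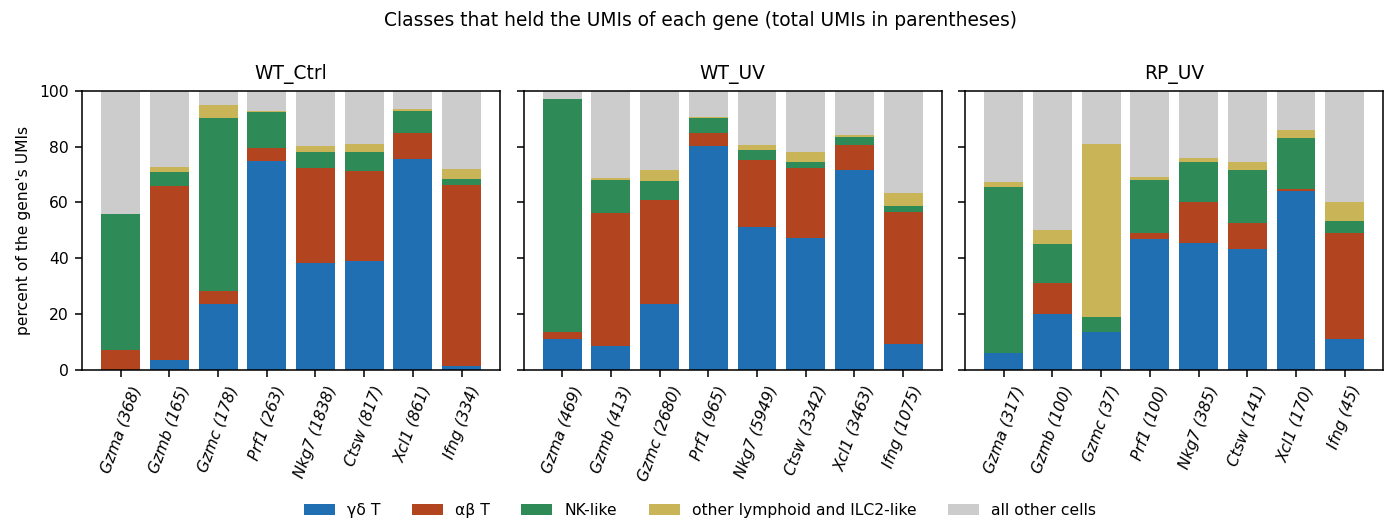
Percent of the UMIs of each member that lay in each class, for the 3 libraries, with the total UMIs of the gene in parentheses. γδ T cells (blue) hold 75.5%, 71.5% and 64.1% of Xcl1, and αβ T cells (red) hold 64.7%, 47.3% and 37.8% of Ifng.

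To determine how the members differed after UVB in wild-type skin, WT_UV was set against WT_Ctrl. In γδ T cells Prf1, Nkg7, Ctsw and Xcl1 were all lower in CPM, at ratios of 0.379 (0.323 to 0.445), 0.417 (0.384 to 0.453), 0.479 (0.425 to 0.542) and 0.368 (0.337 to 0.401). The genes of the T cell receptor complex were lower too: Cd3d, Cd3e and Cd3g summed to 10039 and 4715 CPM, a ratio of 0.47 (0.453 to 0.488). Per Cd3 UMI the 4 members were at 0.806, 0.888, 1.02 and 0.783 of WT_Ctrl, so that Ctsw was on the other side of 1. A Cd3 UMI was also required to enter the class, and how this gate affects the Cd3 level at different depths was not tested. Counted per cell, at mean depths of 3597 and 10137 UMIs, these genes were not lower: Prf1 had 2.12 UMIs per γδ T cell in WT_Ctrl and 2.26 in WT_UV, and Xcl1 had 6.99 and 7.24. How depth enters each of these scales was not tested. In epidermal type γδ T cells alone the 4 ratios were 0.404, 0.435, 0.475 and 0.39.

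A count at a limit of 2-fold was read against all genes with at least 20 UMIs over both libraries. In γδ T cells 0 of 8 members were at least 2-fold higher in WT_UV, beside 9.47% of all 9620 genes, and 4 were at least 2-fold lower, beside 5.77%. The median log2 ratio was -0.93 for the 8 members and -0.04 for all genes. TMM scaling (edgeR) subtracts -0.15 from every log2 ratio of this comparison and so raises them all, and the calls on the higher side went from 62.1% to 76.1% of all calls. Under TMM, Ifng passed the higher limit and Ctsw no longer passed the lower one. Gzmc had a ratio of 1.45 (1.06 to 2.04), which was 0.326 (0.218 to 0.5) in epidermal type cells. Gzmb had 0.579 (0.242 to 1.68) and Ifng 1.93 (0.8 to 6.07), neither beyond counting error. In epidermal type cells alone Ifng was at 7.99 (1.39 to 319), from 82 UMIs in WT_UV and 1 in WT_Ctrl.

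In αβ T cells 1 of 8 members was at least 2-fold higher in WT_UV (6.08% of all 8538 genes) and 2 were at least 2-fold lower (2.44%). The higher gene was Gzmc, at 31.8 (16.1 to 73.8), and the lower ones were Gzma at 0.118 (0.0541 to 0.241) and Gzmb, which no longer passed the limit under TMM. The ratio of Gzma rested on few cells: 4 of 225 held 26 UMIs in WT_Ctrl, and 3 of 326 held 12 in WT_UV, 10 of them in 1 cell. Without the cell with most UMIs, Gzmc was at 196 in WT_UV and 6.92 in WT_Ctrl. Nkg7 at 0.579 (0.527 to 0.638) and Ifng were lower by less than 2-fold, Ctsw stood at 0.801 (0.697 to 0.924), and Prf1 and Xcl1 were at 0.956 (0.497 to 1.98) and 0.994 (0.777 to 1.29). Summed Cd3 was at 0.698 (0.656 to 0.744), and per Cd3 UMI Ctsw was at 1.15, Prf1 at 1.37 and Xcl1 at 1.42, each on the other side of 1. In CD8+ cells Nkg7 was at 0.777 (0.691 to 0.874) and Ctsw at 1.1 (0.915 to 1.32).

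In NK-like cells 1 of 8 members, Gzmb, was at least 2-fold higher in WT_UV (7.03% of all 939 genes) and 0 were at least 2-fold lower (6.39%). Xcl1 at 0.548 (0.399 to 0.756), Ctsw at 0.545 (0.382 to 0.781), Prf1 at 0.559 (0.356 to 0.888) and Gzmc at 0.592 (0.465 to 0.757) were lower by less than that. With the unnamed cluster 24 added, an alternative chosen after seeing the data, the log2 ratio of Gzmc was 0.43. Nkg7 had 0.741 (0.584 to 0.944), Gzma 0.802 (0.67 to 0.962) and Ifng 1.1 (0.476 to 2.82). The 8 NK genes summed to a ratio of 0.92 (0.762 to 1.12). TMM scaling subtracts -0.47 from every log2 ratio here, and the higher calls over all genes went from 52.4% to 94.4%. Under TMM Gzmb was still the only member past 2-fold, and Nkg7 and Gzma were above 1 instead of below it.

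**Figure D4:**
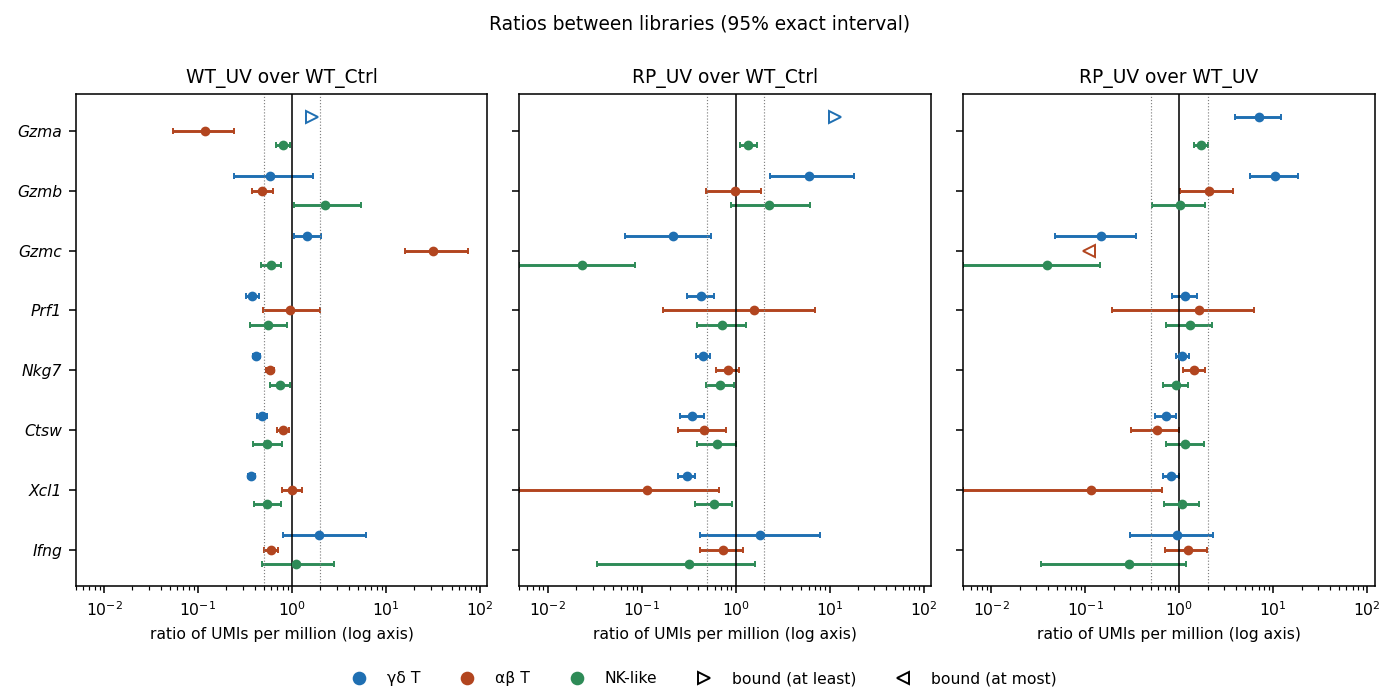
Ratios of CPM between libraries (log axis) for each member in γδ T, αβ T and NK-like cells, with 95% exact intervals, dotted lines at 2-fold and open triangles for bounds. Prf1, Nkg7, Ctsw and Xcl1 of γδ T cells lie near or below 0.5 over WT_Ctrl and between 0.721 and 1.14 for RP_UV over WT_UV, and 4 intervals run off the left edge.

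RP_UV was then set against WT_UV, the pair of irradiated skins with and without Cox-2 excess, which were sequenced in separate runs. In γδ T cells 2 of 8 members were at least 2-fold higher in RP_UV (8.93% of all 9553 genes), Gzma at 6.98 (3.89 to 12) and Gzmb at 10.4 (5.71 to 18.5), and 1 was at least 2-fold lower (9.9%), Gzmc at 0.148 (0.0479 to 0.347). All 3 rested on the few cells named above, and the macrophage genes stood at 6212 and 1388 CPM in these classes. Of the 37 Gzmc UMIs of RP_UV, 62.2% lay in lymphoid cells that met no gate and 18.9% in the 3 classes. In WT_UV these shares were 3.92% and 67.6% of 2680 UMIs, so the Gzmc ratios leave out most Gzmc of RP_UV. Of the widely expressed members Prf1 stood at 1.14 (0.829 to 1.53), Nkg7 at 1.08 (0.918 to 1.25), Ctsw at 0.721 (0.549 to 0.931) and Xcl1 at 0.824 (0.674 to 0.999), beside summed Cd3 at 0.895 (0.832 to 0.961). The ratio of Xcl1 was 0.618 (0.468 to 0.802) in epidermal type cells and 1.71 (1.22 to 2.36) in the other γδ T cells, and 279 of 342 and 29 of 51 cells were of the epidermal type. The value of 1.71 rested on 1 cell of RP_UV, which held 28 of 51 Xcl1 UMIs. Without the cell with most UMIs in each library, these other γδ T cells stood at 457 CPM in RP_UV and 437 in WT_UV. In αβ T cells 1 of 7 members with enough UMIs was at least 2-fold higher (13.9% of all 8048 genes), Gzmb at 2.05 (1.01 to 3.75), and 2 were at least 2-fold lower (7.01%), Gzmc at 0.11 or less and Xcl1 at 0.116 (0.00292 to 0.649), the latter from 1 UMI. Gzmb had 11 UMIs in RP_UV, 5 of them in 1 cell. Without the cell with most UMIs in each library it was at 100 CPM in RP_UV and 77.7 in WT_UV, less than 2-fold apart. Gzmc of WT_UV was in 16 of 326 cells and at 196 CPM without 1 of them, against the floor of 48.1 in 22 cells of RP_UV, and its log2 ratio was -1.46 or less with at most 4000 genes per cell in every library. In NK-like cells 0 of 8 members were at least 2-fold higher (11.3% of all 867 genes) and 2 were at least 2-fold lower (10.3%), Gzmc at 0.0392 (0.00471 to 0.144) and Ifng at 0.294 (0.0337 to 1.18), each from 2 UMIs. With NK-like cells taken from all clusters the log2 ratio of Ifng turned to 0.97. Gzma was higher in NK-like cells of RP_UV by 1.7 (1.42 to 2.02). TMM scaling subtracts 0.17, 0.39 and 0.43 from every log2 ratio in the γδ, αβ and NK-like classes, and the share of higher calls over all genes went from 47.4% to 32%, from 66.5% to 35.6% and from 52.4% to 19.4%. Under TMM Gzmb of αβ T cells no longer passed the limit, Ctsw there did on the lower side, and Nkg7 of γδ T cells was below 1.

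RP_UV and WT_Ctrl came from the same run and differed in both genotype and UVB. In γδ T cells 1 of 6 members with enough UMIs was at least 2-fold higher (8.79% of all 4072 genes), Gzmb at 6.02 (2.33 to 18.3), and 5 were at least 2-fold lower (11.8%). These were Xcl1 at 0.303 (0.245 to 0.372), Ctsw at 0.346 (0.258 to 0.456), Prf1 at 0.431 (0.307 to 0.595), Nkg7 at 0.449 (0.378 to 0.53) and Gzmc at 0.215 (0.0664 to 0.543). Summed Cd3 was at 0.42 (0.388 to 0.454), and per Cd3 UMI Prf1 and Nkg7 were at 1.03 and 1.07, Ctsw at 0.822 and Xcl1 at 0.721, so Prf1 and Nkg7 were on the other side of 1. Per cell, Prf1 had 0.922 UMIs in RP_UV against 2.12, and Xcl1 2.14 against 6.99, at mean depths of 3630 and 3597 UMIs. In αβ T cells 0 of 6 members were at least 2-fold higher (10.1% of all 4247 genes) and 2 were at least 2-fold lower (14.9%), Ctsw at 0.458 (0.241 to 0.798) and Xcl1 at 0.115 (0.00287 to 0.659). TMM scaling subtracts 0.32 from the log2 ratios of αβ T cells, and the higher calls went from 40.5% to 19.1%. In NK-like cells 1 of 7 members was at least 2-fold higher (9.51% of all 452 genes), Gzmb at 2.25 (0.883 to 6.2), and 1 was at least 2-fold lower (5.97%), Gzmc at 0.0232 (0.00278 to 0.0859). Without the cell with most UMIs in each library, chosen after seeing the data, Gzmc was at 206 CPM in WT_Ctrl and had 0 UMIs in RP_UV, and its log2 ratio was -0.89 or less. Gzma was at 1.36 (1.1 to 1.68), a direction that did not hold in every setting. Nkg7 was at 0.681 (0.483 to 0.95), beside the 8 summed NK genes at 0.644 (0.483 to 0.852), and per UMI of these Nkg7 was at 1.06, on the other side of 1. A gene of 0 UMIs in RP_UV could be called lower for 35.2% of the genes in αβ T cells here, and for 17.6% over WT_UV. For the other genes a count of 0 would not have passed the lower limit.

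Shares of cells with a UMI were compared after each cell was thinned to 1000 UMIs. This left out 2, 1 and 5 γδ T cells, 10, 0 and 0 αβ T cells and no NK-like cell. Nkg7 was then found in 83.5% (74.6 to 89.7), 50.7% (45.4 to 56) and 50% (36.1 to 63.9) of γδ T cells, Xcl1 in 72.5% (62.6 to 80.6), 39% (34 to 44.3) and 32.6% (20.9 to 47), and Prf1 in 49.5% (39.4 to 59.5), 26.7% (22.3 to 31.6) and 21.7% (12.3 to 35.6). Ctsw was found in 62.6%, 37.8% and 32.6%. WT_Ctrl was highest for each of these 4 genes, as in level, and the intervals of the irradiated libraries overlapped. Without thinning Nkg7 was in 93.5%, 80.4% and 62.7% and Prf1 in 79.6%, 67.3% and 49% of γδ T cells. Ifng was in 29.8% (24.1 to 36.2), 16% (12.4 to 20.3) and 18.2% (7.31 to 38.5) of αβ T cells after thinning and in 43.1%, 42% and 22.7% before. Macrophage-like cells, which should lack these genes, had no member in more than 0.135% of thinned cells, and keratinocyte-like cells none in more than 0.412%, at median depths before thinning of 3765, 10961 and 4617 and of 6158, 9697 and 5997.5 UMIs. Any of the 8 genes was found in 92.3%, 68% and 63% of γδ T cells, in 71.6%, 58.9% and 72.7% of αβ T cells and in 100% of NK-like cells of every library.

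The wider pathway list had 37 genes: other granzymes, granule assembly and release, granzyme inhibitors, death ligands, transcription factors, receptors and companion chemokines. Of the other granzymes, Gzmd, Gzme, Gzmg and Gzmn had no UMI in the γδ T, αβ T and NK-like classes, and Gzmf, Gzmk and Gzmm had at most 3 UMIs in any of these classes and a library. In γδ T cells of WT_UV over WT_Ctrl, 3 of 28 genes with enough UMIs were at least 2-fold higher (9.47% of all genes) and 8 were at least 2-fold lower (5.77%). Among the lower were Il12rb2, a chain of the interleukin-12 receptor, at 0.281 (0.201 to 0.399), the granzyme inhibitor Serpinb6b at 0.312 (0.216 to 0.459), the chemokine Ccl4 at 0.384 (0.284 to 0.528) and the granule cystatin Cst7 at 0.415 (0.329 to 0.529). For RP_UV over WT_UV 6 of 27 were higher (8.93%) and 3 lower (9.9%), and for RP_UV over WT_Ctrl 5 of 17 were higher (8.79%) and 5 lower (11.8%). The transcription factor Runx3 was lower in RP_UV than in WT_Ctrl, at 445 and 151 CPM and a ratio of 0.34 (0.218 to 0.511). The genes higher than in WT_Ctrl were Srgn, Ctsl, Lamp1, Zeb2 and Ccl3, of which Ctsl, Lamp1 and Zeb2 stood at 1596, 1626 and 706 CPM in macrophage-like cells of RP_UV beside 281, 459 and 443 in its γδ T cells. Srgn, the proteoglycan that packs granzymes, was at 1918 CPM there and at 336 in macrophage-like cells. Levels of the pathway list in neutrophil-like cells were not taken, and the part of neutrophil RNA in the lymphocyte values was not tested. Of 26 genes in αβ T cells, 0 were higher (6.08% of all genes) and 3 lower (2.44%) for WT_UV over WT_Ctrl, the latter Fasl, Ccl4 and Ccl5. For RP_UV over WT_UV 7 of 26 were higher (13.9%) and 6 lower (7.01%), and for RP_UV over WT_Ctrl 5 of 22 were higher (10.1%) and 4 lower (14.9%).

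In NK-like cells of RP_UV Srgn was at 3213 CPM, against 751 in WT_Ctrl and 715 in WT_UV, and Ccl4 was at 1589 against 510 and 607. Ccl5 stood at 5551, 5173 and 4181 in NK-like cells and at 1511, 604 and 1075 in αβ T cells in the order WT_Ctrl, WT_UV and RP_UV. The counts over the list were 1 higher (7.03% of all genes) and 0 lower (6.39%) of 12 for WT_UV over WT_Ctrl, 2 (11.3%) and 0 (10.3%) of 14 for RP_UV over WT_UV, and 3 (9.51%) and 2 (5.97%) of 8 for RP_UV over WT_Ctrl.

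The genes whose level followed the mean of the 8 members most closely over 38 points, each a cell class in a library, were Cd2 (r = 0.94), Klrb1f (0.92), Txk (0.92), Ms4a4b (0.91) and Gimap5 (0.9), on a log2 scale with 10 added. Cd2 is a T and NK cell adhesion molecule that was also used to name clusters, and Txk is a kinase of T cells. The points share libraries and differ in lineage and depth, and the values are a description. Among the members the closest pairs were Nkg7 with Ctsw (0.96) and Prf1 with Xcl1 (0.94), and the least alike was Gzma with Ifng (0.47).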

How the data were processed

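For each of 3 libraries the authors deposited a matrix of unnormalised counts, as UMIs. Per the submitters' processing notes they were made with Cell Ranger 6.1.1 on mm10, and the annotation version is not given in the sources used here. Cells with under 10% mitochondrial counts, over 200 genes and under 4000 genes (6000 in WT_UV) were kept, as in the methods of the study. Libraries were normalised with sctransform 0.4.2 and integrated in Seurat 5.3.0 (R 4.3.3; 3000 features selected, 2967 used after the members and pathway genes were taken out, 30 dimensions, resolution 0.8), which gave 29 clusters. Clusters 5 and 15 were taken as lymphoid, by limits on marker scores that were set after the clusters had been seen, and receptor gates were applied within them.

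UMIs were summed per class and library and divided by all UMIs of the class. Levels have exact Poisson intervals, ratios exact conditional binomial ones and shares Wilson ones. A gene at 0 was set to 3 UMIs for a bound. A gene was counted as past 2-fold from its ratio alone, if it had at least 20 UMIs over both libraries. With 1 library a group no test was made. Doublets were not removed: Scrublet called 1.394%, 0.019% and 0.016% of cells, too few to be used, so the highest 5% of scores were left out as an alternative. TMM factors came from edgeR 4.0.16. Other steps used Python 3.11.15, numpy 2.4.6, scipy 1.17.1 and scanpy 1.11.5. Of these only the ratios and the 2-fold calls were tested on simulated data, as Poisson counts drawn per class and not per cell. Promoters were read from RefSeq tables on GRCm38.p6, the assembly of mm10.

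The genes described are the 8 members, a pathway list of 37 genes and the 5 genes most like the members. Members and lists were chosen with earlier results of these data known. Cell classes were rebuilt from markers and may differ from those of the study.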

Additional observations from a re-analysis of the deposited data

Results flagged for a closer look

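For Gzmb and Gzmc the ratio of WT_UV over WT_Ctrl lay above 1 in one class and below 1 in another with intervals that did not reach 1, and the differences between classes were not tested. Gzma, at least 1.64 in γδ T cells against a floor, was at 0.118 in αβ T and 0.802 in NK-like cells. Its αβ T value rested on 4 of 225 cells of WT_Ctrl and 3 of 326 of WT_UV. Gzmb was at 2.24 in NK-like cells and at 0.485 in αβ T cells. Gzmc was at 1.45 in γδ T cells and 31.8 in αβ T cells and at 0.592 in NK-like cells, with single cells holding 434 of 633, 557 of 998 and 178 of 180 UMIs in WT_UV. With cluster 24 added the log2 ratio of Gzmc in NK-like cells was 0.43.

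Members were also counted outside the 3 classes. An unnamed cluster, numbered 24, had a Cd3 UMI in 29.4% of its cells and held 72, 93 and 46 cells of WT_Ctrl, WT_UV and RP_UV. In WT_Ctrl it had 109 UMIs of Gzma, all in 1 cell, 130 of Nkg7 and 63 of Ctsw. In WT_UV it had 53 UMIs of Gzmb, 657 of Gzmc in 10 cells, 409 of Nkg7, 287 of Ctsw and 354 of Xcl1. Another unnamed cluster, with a Cd3 UMI in 15.1% of cells, had 139 UMIs of Ifng in 43 cells of WT_UV. A keratinocyte-like cluster of RP_UV had 66 UMIs of Gzma in 2 cells. Lymphoid cells that met no gate held 62.2% of the 37 Gzmc UMIs of RP_UV, against 4.49% of 178 in WT_Ctrl and 3.92% of 2680 in WT_UV.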

How the results depend on the processing

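No paired analysis was possible because each group had 1 library. Per UMI of the summed Cd3 or NK genes, an alternative chosen after seeing the data, the median log2 ratio of the members for WT_UV over WT_Ctrl was 0.17 in γδ T cells and -0.011 in αβ T cells, and for RP_UV over WT_Ctrl in γδ T cells it was 0.065, with Prf1 at 0.037 and Nkg7 at 0.094. Ctsw for WT_UV over WT_Ctrl was then at 0.029. The Cd3 and NK genes also defined the classes, so this reference was not independent of the gates. With gates applied to all cells and no cluster step, the median for WT_UV over WT_Ctrl was -1.31 in γδ T and -1.86 in NK-like cells, and for RP_UV over WT_UV in NK-like cells it was 1.69. Gzma was then at -1.81 in γδ T cells for RP_UV over WT_Ctrl, Gzmb at -1.11 in NK-like cells for WT_UV over WT_Ctrl and Ifng at 0.97 there for RP_UV over WT_UV. The classes held 520 and 36 αβ T cells in WT_UV and RP_UV and 30, 62 and 28 NK-like cells. With cluster 24 added, also chosen after seeing the data, NK-like medians were 1.05 for RP_UV over WT_UV and 0.35 over WT_Ctrl, and Gzma in γδ T cells was at -1.63 for RP_UV over WT_Ctrl. Without γδ T cells with a Trac UMI (chosen likewise), 214 were left in WT_UV and Gzmc was at 0.071 for RP_UV over WT_UV. A limit of 4000 genes in every library gave -0.45 for the γδ median of RP_UV over WT_UV, and leaving out high Scrublet scores gave -1.63 for RP_UV over WT_Ctrl. The cause was not tested for any of these. Of 90 medians 80 moved by less than their range, 9 moved by more and 1 turned direction, and of 69 class sizes 63 stayed within 1.5-fold. Of 18 shares of cells with a member 6 were counted as moved, and of 54 percentages past 2-fold 27 were. Of 69 ratios of single genes, 17 moved and 3 turned direction with no cluster step. Per UMI of the summed Cd3 or NK genes 19 moved and 3 turned direction.

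The percent of all genes past 2-fold, in the order higher and lower where both moved, depended on the filter and scaling. With at least 50 UMIs it was 3.8 lower in γδ T cells and 2.74 and 0.988 in αβ T cells for WT_UV over WT_Ctrl, 3.77 and 1.57 in NK-like cells, 10.7 lower in αβ T cells and 7.36 higher in NK-like cells for RP_UV over WT_UV, and 6.23 higher in αβ T cells and 3.8 lower in NK-like cells for RP_UV over WT_Ctrl. With no filter it was 5.93 and 11.3 in γδ T cells, 6.51 lower in αβ T cells and 17.9 lower in NK-like cells for WT_UV over WT_Ctrl, 6.19 and 3.88 lower in γδ and αβ T cells and 17.1 and 3.83 in NK-like cells for RP_UV over WT_UV, and 17.5 and 5.23 in αβ T cells for RP_UV over WT_Ctrl. Under TMM it was 3.76 lower in γδ T cells and 18.1 and 1.06 in NK-like cells for WT_UV over WT_Ctrl, 7.79 and 14.1 in αβ T cells and 5.54 and 23% in NK-like cells for RP_UV over WT_UV, and 5.09 higher in αβ T cells for RP_UV over WT_Ctrl.

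Thinned to 2000 UMIs, 74.85% of γδ T cells of WT_UV and 81.21% and 70.62% of αβ T cells of WT_Ctrl and WT_UV had a member, and without thinning 85.96%, 82.22% and 84.66%. Cell number limited RP_UV most among T cells, with 51 γδ T and 22 αβ T cells, and 153 of its 241 lymphoid cells met no gate. NK-like cells were few in every library, at 14, 15 and 14 in WT_Ctrl, WT_UV and RP_UV.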
